A study of Mus musculus with 12 samples.

Results

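The 110 genes described here are the mouse protein-coding genes that RefSeq names as histone lysine demethylases (Kdm), methyltransferases (Kmt2, Kmt5, Setd), deacetylases and sirtuins (Hdac, Sirt), acetyltransferases (Kat), arginine methyltransferases (Prmt), Smarc and Chd chromatin remodellers, and Arid and Brd proteins. They were taken by symbol, as one of these prefixes followed by a digit or by a letter and a digit, out of 21900 protein-coding genes. Earlier results of these data were known when the members and the comparison lists were chosen. Kmt2 and Kmt5 already end in their digit and were taken as whole prefixes, which brought in 8 genes with only a letter after it. Of them, 109 lie on the autosomes and X, the chromosomes of the data, together with 21631 protein-coding genes in all. Kdm5d lies on Y and was not analysed here. The symbol rule also took in Brd3os and Brd8dc, which carry a family prefix and are annotated as protein-coding.

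Meiotic double-strand breaks were mapped in whole testis of adult male mice with an antibody to DMC1, the recombinase that coats the single-stranded DNA beside a break. Sequencing of that DNA (SSDS) gives intervals called hotspots. Wild type mice of the strain C57BL/6JCrl were compared with mice labelled Ankrd31 tm1Atot, a knockout allele of a gene whose protein acts with the break-forming machinery, with 2 DMC1 samples and 1 deposited hotspot list per genotype. The knockout mice are labelled by allele only, so a strain difference and the genotype cannot be told apart, and H3K4me3 and input samples, taken at 13 days of age, were not analysed here. Whole testis holds many cell types, and the lists give no expression values with which to check the tissue or the loss of Ankrd31.

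Chromatin modifiers add chemical groups to histones (writers), remove them (erasers) or bind them (readers), while remodellers use ATP to slide, evict or exchange nucleosomes. Many of these genes are active in most tissues and have promoters rich in CpG dinucleotides. In mice, recombination is normally steered away from such promoters by PRDM9, a meiotic histone methyltransferase that binds its own DNA motif, and hotspots at promoters are a known feature of mice that lack PRDM9.

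Promoter sequences are shown to let the CpG content of members with a strong hotspot at the start be compared with a long member that had none. By strength, the 5 leading members with a hotspot centred within 250 bp of a listed start were Hdac6, Setd3, Kdm5c, Kmt5b and Chd6, and Hdac9 is the longest member with no hotspot at an end. Each run holds the bases among the 250 before the most upstream RefSeq start (build GRCm38.p6) that lie outside every annotated gene, 5′ to 3′ on the gene's strand, with CG in capitals. The region before Setd3 lies wholly inside the annotated extents of Setd3 and Ccnk and is not printed. For Kmt5b the run precedes the more upstream of 2 listed starts, and its hotspot was centred 237 bp downstream of the other one.
Hdac6, chrX:7948048-7948139, minus strand: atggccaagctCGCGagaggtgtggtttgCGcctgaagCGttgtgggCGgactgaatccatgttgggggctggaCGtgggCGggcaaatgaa
Kdm5c, chrX:152232977-152233197, plus strand: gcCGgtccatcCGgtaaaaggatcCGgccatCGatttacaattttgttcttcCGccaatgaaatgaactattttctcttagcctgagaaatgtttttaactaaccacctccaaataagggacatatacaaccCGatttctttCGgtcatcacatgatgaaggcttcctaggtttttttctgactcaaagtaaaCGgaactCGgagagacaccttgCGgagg
Kmt5b, chr19:3767171-3767361, plus strand: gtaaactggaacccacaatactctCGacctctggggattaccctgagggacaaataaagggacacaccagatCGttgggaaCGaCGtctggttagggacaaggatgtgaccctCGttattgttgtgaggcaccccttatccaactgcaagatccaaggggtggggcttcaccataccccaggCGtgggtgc
Chd6, chr2:161109087-161109336, minus strand: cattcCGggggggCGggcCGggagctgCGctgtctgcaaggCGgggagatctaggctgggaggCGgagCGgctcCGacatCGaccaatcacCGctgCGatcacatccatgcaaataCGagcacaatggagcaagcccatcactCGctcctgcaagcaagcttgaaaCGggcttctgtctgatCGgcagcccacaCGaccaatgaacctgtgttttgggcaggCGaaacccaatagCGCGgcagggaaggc
Hdac9, chr12:34917096-34917345, minus strand: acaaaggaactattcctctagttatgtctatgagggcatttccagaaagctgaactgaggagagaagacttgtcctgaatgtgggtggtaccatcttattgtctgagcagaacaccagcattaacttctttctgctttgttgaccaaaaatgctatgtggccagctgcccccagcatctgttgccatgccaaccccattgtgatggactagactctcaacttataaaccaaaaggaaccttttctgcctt

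The runs held 7 CG sites in 92 bases for Hdac6, 10 in 221 for Kdm5c, 6 in 191 for Kmt5b, 19 in 250 for Chd6 and 0 in 250 for Hdac9. Over 17274 protein-coding genes with a listed start, the 250 bases before it held a median of 10 CG sites (quartiles 3 and 19.0). Matches to 4 promoter motifs were counted on both strands. The GC box GGGCGG occurred 2 times in the Hdac6 run and 1 time in the Chd6 run, and in 43.2% of the 250-base regions of all these genes. CCAAT occurred 3 times for Chd6 and 1 time for Kdm5c (36.8% of all), TATAAA 1 time for Hdac9 (12.5% of all), and the ETS motif CCGGAAG in none of the 5 runs (9.26% of all). The Hdac9 run thus differed from the other 4 in holding no CG site and a TATAAA match. Hdac9 does not stand for the members that lacked a knockout-only hotspot (absent from the wild type list) at a start. Their median ratio of observed to expected CG sites around a start was 0.841 (42 members), beside 0.820 over 44 members with such a hotspot. The ratio was 0 for Hdac9, and also for Kdm4c, which had such a hotspot at a listed start inside the gene.

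The wild type list held 13480 hotspots with 4376692 reads, and the knockout list 22034 hotspots with 4203380 reads, down to 28 and 23 reads in the weakest interval. A hotspot of one list was shared when it overlapped one of the other by at least 1 bp (11487 pairs, all 1 to 1), and 10547 hotspots were found in the knockout list only. Strength is the deposited count of reads minus background. With 1 list per genotype, differences between genotypes have no replicate check and were not tested. Intervals beside a strength are 95% Poisson intervals of the reads, and those beside a share are exact 95% binomial intervals over genes. Both cover counting error only, and genes and hotspots are not replicates. "Knockout-only" means absent from the wild type list, which can hold for an interval just under its calling threshold.

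In the knockout, 49 of the 109 chromatin genes carried a knockout-only hotspot centred within 1 kb of a gene end, which is 45.0% (35.4 to 54.8), while 25.5% of all protein-coding genes had one (5519 of 21631). In the wild type, 1 of the 109 had a hotspot at an end, which is 0.917% (0.0232 to 5.01) beside 1.99% of all genes. That hotspot lay at the 3′ end of Smarca2, an ATPase of the BAF remodelling complex, and was shared, its strength being 555 in wild type and 827 in knockout testis. Shared hotspots lay at an end of 1.85% of all genes. On the autosomes 45 of 104 members carried a knockout-only hotspot at an end, or 43.3% (33.6 to 53.3), beside 24.8% of autosomal genes. Members with such a hotspot were therefore more frequent than among all genes by more than the counting interval, on the autosomes as well. With the knockout list shortened to the number of wild type hotspots, keeping the strongest, the counts were 28 of 109 members (25.7%) and 14.6% of all genes. With a window of 2 kb, a second member, Brd9, had a wild type hotspot at an end (179). The CpG content of their promoters also differed from that of all genes, and the shares within CpG classes are given with it.

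Roles were assigned by prefix and not by the activity of each protein. Brd3os and Brd8dc were thus counted with the acetyl readers, and Setd3 with the lysine methyl writers. The share differed between roles, with wide intervals. It was 57.1% for remodellers (34.0 to 78.2), 62.5% for acetyl writers (24.5 to 91.5) and 50% for both lysine methyl writers and acyl erasers (26.0 to 74.0 each). It was 41.2% for methyl erasers (18.4 to 67.1), 40.0% for Arid genes (12.2 to 73.8), 25% for arginine methyl writers (3.19 to 65.1) and 11.1% for the acetyl readers of the Brd family (0.281 to 48.2). The intervals of all 8 roles overlapped, so no order among them can be read from these counts.

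**Figure D1:**
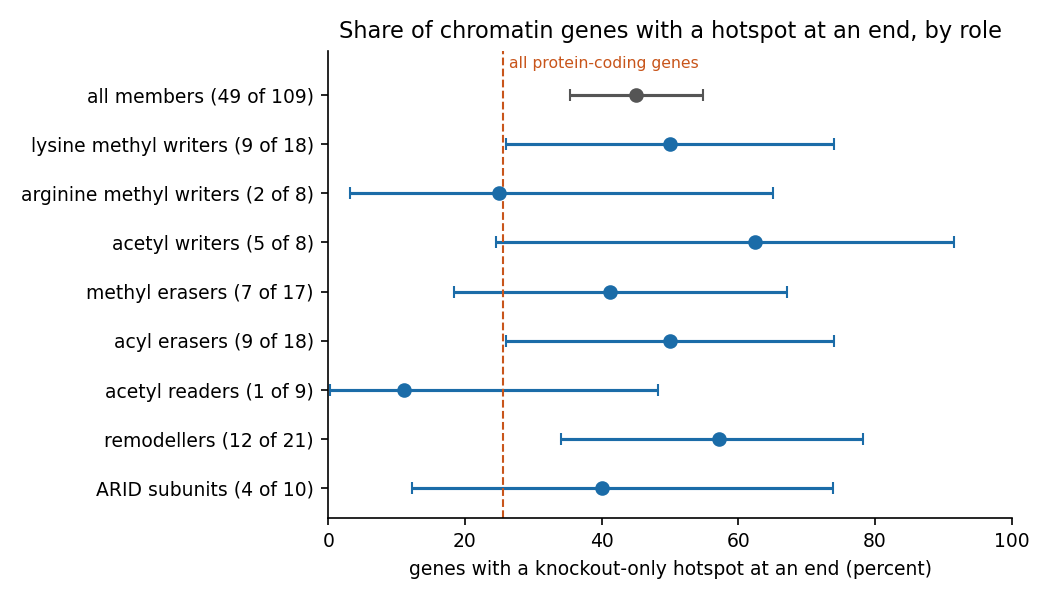
Share of genes with a knockout-only hotspot at an end (x axis, percent) for all members and for each role (y axis, with counts). Points are shares, bars are exact 95% binomial intervals over genes, and the dashed line is the 25.5% of all protein-coding genes. The interval of all members (35.4 to 54.8) lies above that line, while those of several single roles cross it.

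The strength of these hotspots was a median of 101 (range 35.0 to 551) over the 49 members, beside 94.0 over the 4920 different knockout-only hotspots at any protein-coding end. Strengths above the median of the whole wild type list (152) were reached by 17 of the 49, or 34.7%, beside 25.2% of all such hotspots. A total of 24 lay above the median of the knockout list (105), or 49.0%, beside 42.6% of all such hotspots. The medians of members and of all gene ends were close, while the upper quartile was 243 for members and 154 for all. No interval was computed for these shares and quartiles, so whether members had stronger hotspots than all gene ends is not resolved.

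Among the lysine methyl writers, 9 of 18 carried a knockout-only hotspot at an end. Kmt2c, which methylates histone H3K4 at enhancers, had a strength of 368 (330.2 to 408.7) at chr5:25497786-25500492. Setd7, a methyltransferase of H3K4 and of other proteins, had 335 (298.8 to 374.2) at chr3:51559070-51561448. Setd3, which methylates a histidine of actin, had 297 (263.6 to 333.3) at chr12:108178208-108180508, an interval that also covers an end of Ccnk. These intervals of neighbouring strengths overlapped, so their order is not resolved. Kmt2e, a member of the family with little catalytic activity, had 293 (257.9 to 331.0) at chr5:23431966-23435002. Kmt2b, which places H3K4 methylation at promoters, had 253 (220.5 to 288.4) at chr7:30587878-30589610, where an end of Zbtb32 lies too. Kmt5b, a writer of H4K20 methylation, had 243, Setdb2 123, Kmt5c 53 and Kmt2a 43. The Kmt2 family, most of whose proteins are the catalytic subunits of H3K4 methylating complexes, had such a hotspot at 4 of its 5 genes, with strengths from 43 to 368. That share was 80.0% with a wide interval (28.4 to 99.5), beside 25.5% of all protein-coding genes. Kmt2d, Kmt5a, Setd1a, Setd1b, Setd2, Setd4, Setd5, Setd6 and Setdb1 had none at an end.

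Of the arginine methyl writers, Prmt3 (136) and Prmt6 (87) had one, and Prmt1, Prmt2, Prmt5, Prmt7, Prmt8 and Prmt9 did not. Of the acetyl writers, Kat6a, an acetyltransferase of the MYST family, had a strength of 378 (339.8 to 419.2) at chr8:22858284-22860572. The other 4 with a hotspot were weaker, with 72 for Kat2b, 60 for Kat8, which acetylates H4K16, and 35 each for Kat7 and Kat14. Kat6a thus stood apart within its family, with an interval that no other Kat hotspot reached. Kat2a, Kat5 and Kat6b had none at an end.

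Of the 17 methyl erasers, 7 carried a knockout-only hotspot at an end. X-linked Kdm5c, which removes H3K4 methylation, had the strongest, 277 (244.5 to 312.5) at chrX:152231784-152234358. Kdm3a, an eraser of H3K9 methylation, had 145, Kdm3b 101, Kdm4d 80, Kdm8 62, Kdm1b 61 and Kdm7a 55. The counting intervals of the last 4 overlapped one another. Kdm1a, Kdm2a, Kdm2b, Kdm4a, Kdm4b, Kdm4c, Kdm5a, Kdm5b, Kdm6a and Kdm6b had none at an end.

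Among the acyl erasers, 5 of 11 Hdac genes and 4 of 7 sirtuins had one. These shares were 45.5% (16.7 to 76.6) and 57.1% (18.4 to 90.1), beside 25.5% of all protein-coding genes. Hdac6, which deacetylates tubulin in the cytoplasm, had a strength of 386 (346.5 to 428.4) at chrX:7946598-7949016. Hdac2, a nuclear class I deacetylase, had 321 (286.7 to 358.2) at chr10:36973239-36975297, and its close relative Hdac1 had 128. Hdac8, a deacetylase of cohesin, had 244 (214.0 to 276.9) at chrX:102503947-102505733, and Hdac5 had 76. The paralogs Hdac1 and Hdac2 therefore differed in strength by more than their counting error. The sirtuins, which use NAD to remove acyl groups, had 162 for Sirt4, 80 for Sirt3, 69 for Sirt1 and 52 for Sirt5. Hdac3, Hdac4, Hdac7, Hdac9, Hdac10, Hdac11, Sirt2, Sirt6 and Sirt7 had none at an end. Of the genes with the Brd prefix only Brd8 had one (201), and Brd1, Brd2, Brd3, Brd3os, Brd7, Brd8dc and Brd9 were among those without.

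Among the remodellers, 8 of 11 Smarc genes and 4 of 10 Chd genes carried a knockout-only hotspot at an end. These shares were 72.7% (39.0 to 94.0) and 40.0% (12.2 to 73.8), beside 25.5% of all protein-coding genes. Smarca1, an ISWI-type ATPase on X, had the highest strength among the knockout-only hotspots at member ends, 551 (504.6 to 600.3) at chrX:47890911-47893009. The BAF ATPase Smarca4 had 122 (98.8 to 148.2) and the ISWI ATPase Smarca5 had 118 (96.4 to 142.6), which overlap. The accessory BAF subunits had 120 for Smarcd1, 97 for Smarcc1, 93 for Smarcd2, 62 for Smarce1 and 52 for Smarcc2, and Smarcb1 and Smarcd3 had none. Of the Chd ATPases, Chd6 had 229, Chd8 81, Chd3 69 and Chd1l 51, while Chd1, Chd2, Chd4, Chd5, Chd7 and Chd9 had none. The autosomal remodellers with a hotspot had strengths of 51 to 122, except for Chd6.

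Of the Arid genes, Arid4a, a subunit of Sin3 deacetylase complexes, had a strength of 437 (396.4 to 480.6) at chr12:71014291-71017497, the highest of a knockout-only hotspot at the end of an autosomal member. Its paralog Arid4b had 214 (185.3 to 245.7), Arid3b 79 and Arid5a 51. The BAF subunits Arid1a, Arid1b and Arid2, as well as Arid3a, Arid3c and Arid5b, had none at an end. Both Arid4 paralogs had a hotspot, with strengths further apart than their counting error.

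**Figure D2:**
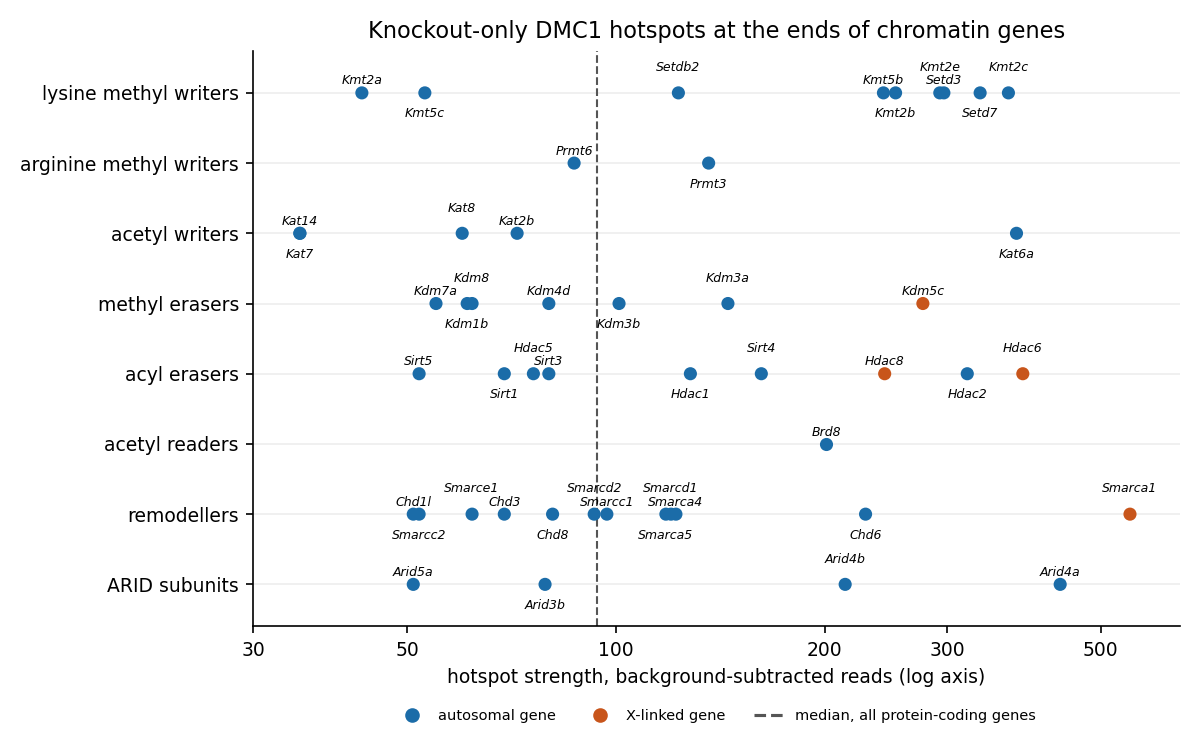
Strength of the knockout-only hotspot at each of 49 members (x axis, background-subtracted reads, log axis) by role (y axis), with 1 point per gene and X-linked genes in orange. The dashed line is the median of 94.0 over such hotspots at all protein-coding genes. Smarca1 (551) and Arid4a (437) are farthest to the right, and Kat7 and Kat14 (35 each) farthest to the left.

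All 5 X-linked members are named here. A knockout-only hotspot lay at an end of Smarca1 (551), Hdac6 (386), Kdm5c (277) and Hdac8 (244) and at no end of Kdm6a, an eraser of H3K27 methylation. That is 4 of 5 (28.4 to 99.5%), beside 40.3% of X-linked protein-coding genes. The median strength of the 4 was 331.5, beside 219 over 369 such hotspots on X and 90 over the autosomal ones. The 45 autosomal members had a median of 93.0. The X-linked members were thus stronger than the middle autosomal member, as X-linked gene ends were in general.

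To tell the start of a gene from its 3′ end, the strand of RefSeq promoter entries was used, which covered 86 of the 109 members. Of the 49 members with a knockout-only hotspot at an end, 40 had a listed start, and in all 40 the hotspot lay at the 5′ end. Over all protein-coding genes with a listed start, 4365 of 4547 lay nearer the 5′ end (96.0%). No member had a knockout-only hotspot at the 3′ end (0 of 86, upper limit 4.20%), beside 1.27% of all genes. The 9 members without a listed start (Arid4a, Brd8, Chd3, Hdac1, Kat6a, Kdm3b, Kmt2b, Kmt2e and Smarce1) could not be assigned to either end.

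Counting hotspots within 1 kb of the 5′ end or of any listed start, 44 of 86 members had one, or 51.2% (40.1 to 62.1), beside 28.6% of all genes (4932 of 17274). The 4 members added were Kdm4c (240), Kat6b (170), Kmt2d (116) and Hdac4 (95), whose hotspots lay at a listed start inside the gene. For 38 of the 40 members at the 5′ end, the hotspot was within 1 kb of a listed start, and for 26 it was within 250 bp (65.0%, beside 73.0% over all genes). The 2 others, Sirt4 and Smarcd2, had it at the annotated gene end, over 5 kb from the nearest listed start. Of the 38, 25 were centred downstream of the start and 13 upstream, with a median of 85.0 bp downstream, beside 26.0 bp downstream over all genes. The hotspots of these members thus straddled the start itself.

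**Figure D3:**
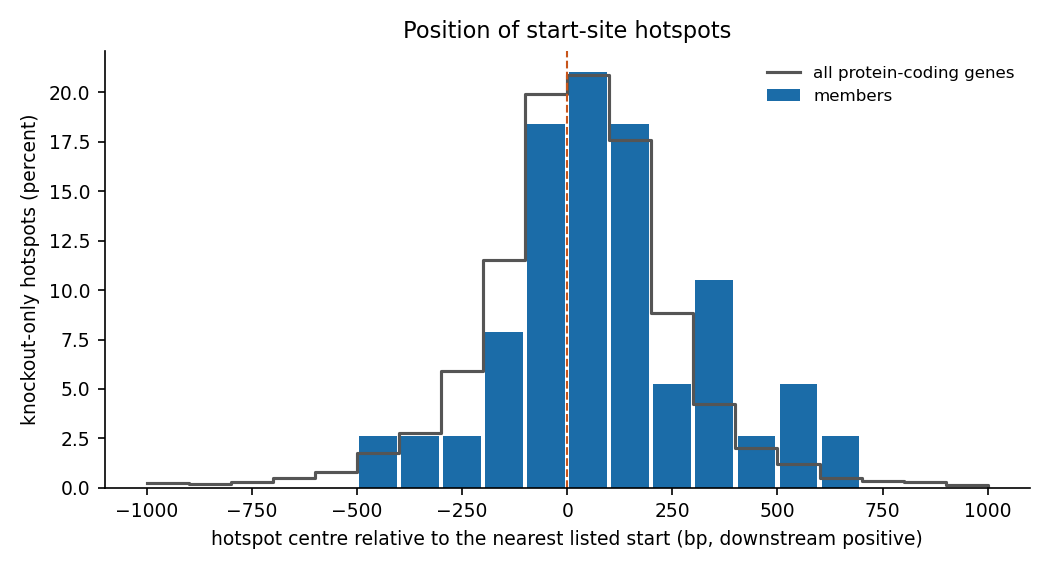
Position of the centre of knockout-only hotspots relative to the nearest listed start (x axis, bp, downstream positive) as percent of hotspots per bin of 100 bp (y axis), for 38 members (bars) and 4218 protein-coding genes (line). Both pile up at the start (dashed line), and no member lies beyond 700 bp on either side.

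Promoters of the chromatin genes were rich in CpG, whether or not they had a hotspot. CpG content was taken as the observed over the expected number of CG sites in 300 bases, 250 before and 50 after the listed start nearest the 5′ end. The median ratio was 0.820 over 44 members with a knockout-only hotspot at a start and 0.841 over 42 without. Over all protein-coding genes it was 0.799 with a hotspot and 0.396 without. The difference seen over all genes was thus not seen among the members, whose quartiles overlapped almost fully (0.679 to 0.922 with and 0.682 to 0.953 without).

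A ratio of at least 0.6 was found in 76 of 86 members (88.4%), beside 49.0% of all genes. In that class, 38 of 76 members had a knockout-only hotspot at a start, or 50% (38.3 to 61.7), beside 46.5% of all genes. Under 0.6 it was 6 of 10 members (26.2 to 87.8%), beside 11.3% of all genes. Among CpG-rich promoters the share of members was therefore within its counting interval of the share of all genes. The 6 members under 0.6 with a hotspot were Kat8, Sirt5, Hdac8, Kdm4c, Smarcd2 and Smarca1, of which Kdm4c and Smarcd2 had it away from the promoter that was measured. The motif CCAAT, on either strand of the 300 bases, was present in 22 of 44 members with a hotspot and 12 of 42 without (50 and 28.6%), beside 40.9 and 39.0% over all genes. The GC box GGGCGG was present in 70.5 and 66.7% of members, beside 72.1 and 36.8% over all genes. TATAAA was found in 4.55 and 7.14% of members (6.10 and 16.4% over all genes) and CCGGAAG in 20.5 and 23.8% (15.8 and 10.6% over all genes). A match is a description of the letters, and what it means for a hotspot was not tested.

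**Figure D4:**
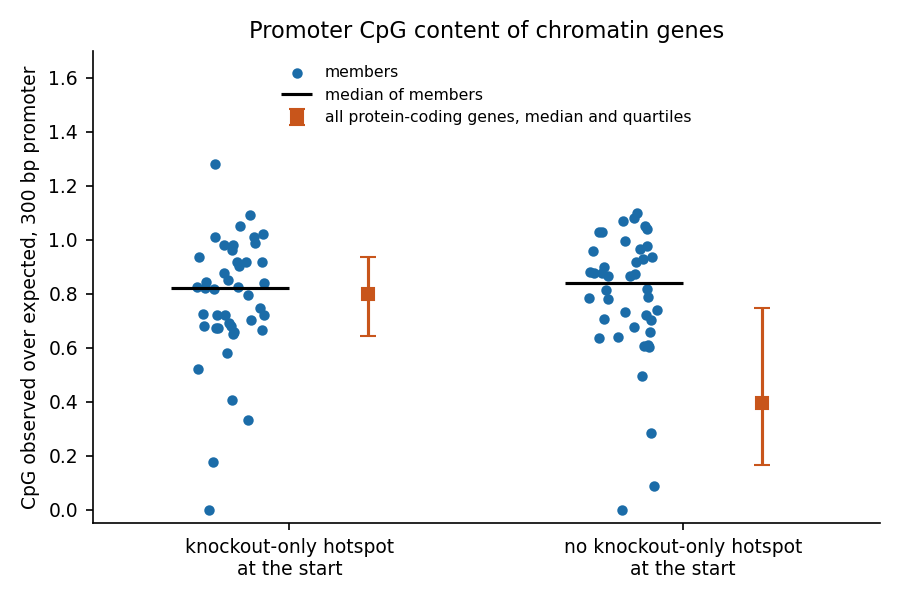
CpG observed over expected in 300 bp promoters (y axis) for members with and without a knockout-only hotspot at the start (x axis). Blue points are genes, black lines their medians (0.820 and 0.841), and orange squares with bars the median and quartiles of all protein-coding genes. The members overlap fully, while all genes without a hotspot lie lower (0.396).

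Some of these intervals cannot be assigned to the member alone. At 11 of the 49 (22.4%, beside 23.5% over all genes) the end of another protein-coding gene lay within the same window, such as Ggps1 at Arid4b, Kif20a at Brd8, Ccnk at Setd3, Psmd13 at Sirt3, Cwc15 at Kdm4d and Zbtb32 at Kmt2b. At 13 only a non-coding gene did (26.5%, beside 12%), and at 25 there was no other gene. Among those 13 were the strong hotspots of Arid4a, Hdac6, Kmt2c, Setd7, Kmt2e and Hdac8. Each of these had the end of a long non-coding RNA gene in the window, so their strengths cannot be assigned to the member alone. Gene length did not separate members, with a hotspot at 25 of the 55 shorter and 24 of the 54 longer ones. Near the limit of the window, Arid4a (813 bp from the gene end) and Smarce1 (919 bp) were inside. Kdm5b (1153 bp, strength 103), Kdm2a (1350 bp, 232), Kat6b (1369 bp, 170), Hdac3 (1471 bp, 177) and Arid2 (1821 bp, 338) were the nearest outside.

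Inside the gene bodies the wild type had hotspots too, away from the ends. A wild type hotspot was centred inside 35 of the 109 members (32.1%, 23.5 to 41.7), beside 19.8% of all genes, and a knockout hotspot inside 62 (56.9%, 47.0 to 66.3), beside 34.8%. Members are long, with a median of 40.6 kb, so hotspots per Mb were compared. The wild type had 66 hotspots in 7.49 Mb, or 8.81 per Mb (6.81 to 11.2), beside 6.63 in all protein-coding genes (6.48 to 6.79). The knockout had 100, or 13.3 per Mb (10.9 to 16.2), beside 11.3. With 1 kb next to each end left out, the members had 8.79 per Mb in the knockout (6.77 to 11.2) and 9.07 in the wild type (7.01 to 11.5), with overlapping intervals. All protein-coding genes had 7.89 and 6.67 per Mb there, so the members' interval included the value of all genes for the knockout and lay above it for the wild type. Counting those above the median strength of their list gave 5.20 per Mb in wild type and 7.21 in knockout testis, and the shortened knockout list gave 8.54. A total of 34 members had no hotspot of either list at an end or inside, and 15 had both a wild type hotspot inside and a knockout-only hotspot at an end. No value over all genes is given for these counts, or for the densities of stronger hotspots and of the shortened list. They describe the members only.

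Single genes differed widely in how many hotspots they held. Hdac9, a class II deacetylase, had 6 wild type and 8 knockout hotspots, and Chd9 had 5 and 6. Arid1b had 4 and 5, Kmt2c 5 and 3, and Arid5b 4 and 4. Hdac8 and Chd7 had 3 in each list, and Prmt3 and Sirt1 had 2 wild type and 3 knockout hotspots each. Kdm2b (3 and 1), Kdm3a, Kdm3b and Smarcc1 (2 and 2 each) tied for the next place. In these 13 genes the counts of the 2 lists differed by at most 2.

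Shared hotspots inside members had lower relative strength in the knockout list. Relative strength is the strength divided by the median over shared autosomal hotspots on that list (182 for the wild type, 151 for the knockout). The 49 shared hotspots lay in 26 members, with a wild type strength of 26.0 to 4016 (median 303) and a knockout strength of 38.0 to 1907 (median 148). Their median log2 ratio of relative strength, knockout over wild type, was -0.96 (-1.13 to -0.49, order-statistic interval over hotspots). Inside all protein-coding genes the median was -0.31 (-0.35 to -0.27, 5605 hotspots), and outside them 0.22. The 46 autosomal hotspots of members had a median of -0.86 (-1.13 to -0.38), beside -0.30 inside all autosomal genes. The 3 on X had -1.62, beside -0.33 inside all X-linked genes. Of the 49, 38 were below 0 (77.6%, beside 61.8% inside all genes). A total of 24 were over 2-fold lower (49.0%, beside 24.9% inside all genes), while 2 were over 2-fold higher (4.08%, beside 8.30%). Taking 1 median per gene, the value was -1.05 over 26 members, beside -0.38 over all genes. Of these 26 members 23 were below 0 (88.5%, beside 64.4% of all genes). Leaving out the hotspots of each gene in turn, the median over the remaining hotspots was -1.01 to -0.82.

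The shared hotspots of members were stronger in the wild type than those inside all genes, with medians of 303 and 211. Wild type strength is the denominator of the ratio, so lower ratios in stronger wild type classes follow in part from the construction, and the classes serve only to set members beside all genes of like strength. Up to the median wild type strength of shared hotspots (185), the median log2 ratio was -0.19 in members (-0.49 to 0.54, 13 hotspots) and 0.25 in all genes. Above it, the value was -1.09 in members (-1.40 to -0.82, 36 hotspots) and -0.75 in all genes (-0.79 to -0.72). Of these, the hotspots up to the upper quartile had -0.65 in members (-1.14 to 0.03, 17 hotspots) and -0.54 in all genes (-0.58 to -0.49). Above the upper quartile (417), it was -1.22 in members (-1.62 to -1.05, 19 hotspots) and -1.02 in all genes (-1.06 to -0.96). All 19 were below 0, beside 88.2% of those in all genes. The intervals of members and all genes overlapped in both of these narrower classes and did not meet in the class that joins them. Inside members with a knockout-only hotspot at an end the median was -1.14 (-1.48 to -0.82, 17 hotspots), and inside the others -0.62 (-1.05 to 0.03, 32 hotspots), beside -0.63 and -0.15 inside all genes. The wild type strength moved with it in members, with medians of 461 and 261, and its part in this difference was not tested.

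Among hotspots above the median strength of their list in at least 1 list, the lowest ratio was inside Kmt2d, a writer of enhancer H3K4 methylation, from 322 in wild type to 43 in knockout testis (log2 ratio -2.64, -3.12 to -2.15). Inside Arid1b a hotspot went from 303 to 55 (-2.19, -2.64 to -1.75), and inside Kdm3a from 327 to 62 (-2.13, -2.52 to -1.74). The intervals of these 3 overlapped. Sirt1 went from 1460 to 314 (-1.95, -2.13 to -1.77) and Kdm6a on X from 3033 to 668 (-1.91, -2.04 to -1.79). At the other end, Chd7 went from 230 to 346 (0.86, 0.61 to 1.11), Chd9 from 189 to 239 (0.61, 0.32 to 0.89) and Kat2b from 135 to 163 (0.54, 0.21 to 0.87). Kdm4a, from 259 to 241 (0.17, -0.10 to 0.43), and Arid5b, from 132 to 118 (0.11, -0.26 to 0.48), had intervals that included 0. Hotspots of 1 gene differed: in Chd9 the hotspot with 1216 in the wild type had a log2 ratio of -1.66, and the one with 189 had 0.61.

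The 2 strongest hotspots inside members had ratios nearer 0 than the median of their set, but within its interval (-1.13 to -0.49). The next strongest, inside Kdm6a (3033), had -1.91, and members' hotspots with a wild type strength above 417 had a median of -1.22. Inside Hdac8, on X, strength went from 4016 to 1892 (log2 ratio -0.82, -0.90 to -0.74). Inside Hdac9 it was 3885 and 1907 (-0.76, -0.84 to -0.68). The 5 other shared hotspots of Hdac9 went from 905 to 692, from 399 to 341, from 238 to 141, from 1753 to 702 and, for the weakest, from 27 to 58. Hdac9 thus held both one of the strongest hotspots of the set and one of 2 that were over 2-fold higher in relative strength, the other being the weakest hotspot of Arid5b, from 26 to 60. The log2 ratios of these 2 were 1.37 (0.58 to 2.16) and 1.48 (0.76 to 2.19), with intervals that reached under 2-fold. Both ranked near the bottom of the wild type list (13440 and 13449 of 13480).

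**Figure D5:**
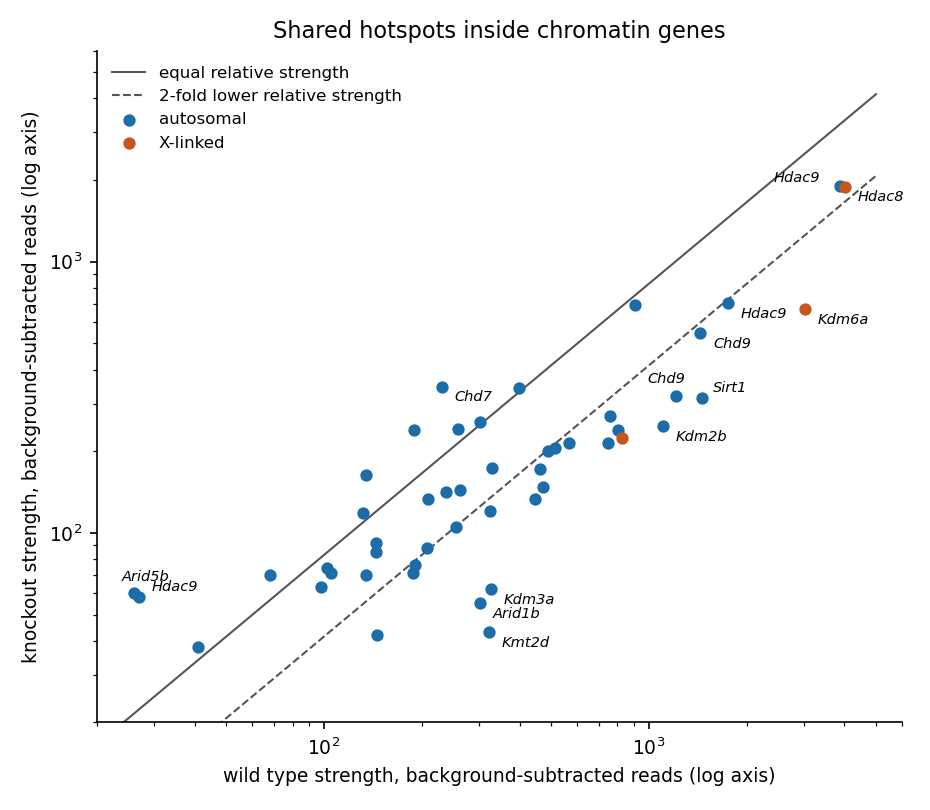
Strength of 49 shared hotspots inside members in the wild type (x axis) and the knockout (y axis), in background-subtracted reads on log axes, with X-linked genes in orange. The solid line marks equal relative strength and the dashed line a 2-fold lower one. Of the points, 38 lie under the solid line and 24 under the dashed one, Kmt2d (322 to 43) farthest below.

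Inside members, hotspots found in 1 list had lower median strengths than shared ones, with overlapping ranges. The medians were 130 beside 148 in the knockout list and 86.0 beside 303 in the wild type list. Away from the ends, 15 knockout-only hotspots inside members had a median strength of 130 (45.0 to 315), the strongest inside Arid1b, and 4 of them lay at the internal starts given above. Leaving out 1 kb next to each end, that is 2.06 per Mb (1.15 to 3.40), beside 2.47 in all genes. A total of 17 hotspots in 15 members were found in the wild type list only, with a median of 86.0 (33.0 to 270), led by Chd1 (270), Setd4 (163), Kdm4b (159) and Kdm3b (131). They made up 2.27 per Mb (1.32 to 3.63), beside 1.22 in all genes (1.15 to 1.28). The members' interval of wild-type-only hotspots thus lay above the value of all genes, and that of knockout-only hotspots away from ends included it.

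Chromatin genes outside the symbol rule gave a like share of knockout-only hotspots at an end. Their list and the gene families named below were chosen with earlier results of these data known, so the shares are descriptions only. Of 101 other subunits and enzymes, 47 carried such a hotspot, or 46.5% (36.5 to 56.7), beside 25.5% of all protein-coding genes, with a median strength of 97.0. The strongest were at Gatad2b (395) and Mbd2 (248) of the NuRD deacetylase complex, the H3K9 methyltransferase Suv39h2 (315), the remodeller subunits Bptf (289) and Rsf1 (202), and the BAF subunit Actl6a (281). The group shares ran from 25% for DNA methylation genes (2 of 8) to 66.7% for other remodellers (8 of 12). Of these 101 genes 5 had a wild type hotspot at an end, beside 1 of the 109 members and 1.99% of all protein-coding genes. They were Jade2 (413), Nsd1 (349) and, on X, Atrx (133), Rbbp7 (80) and Suv39h1 (73). Among families of DNA- or RNA-binding genes, the Zbtb, Klf and Zc3h genes had 29 of 74 (39.2%, 28 to 51.2), and the Fox, Sox, Pax, Tbx and Gata genes, many of them active in restricted tissues, had 13 of 91 (14.3%, 7.83 to 23.2). The interval of the members overlapped the first and lay above the second.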

How the data were processed

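DMC1-SSDS hotspot lists, 1 per genotype, were used as deposited. Per the file headers, the authors give for each hotspot a count of reads, a background signal, the strength (a signal, reads minus background), a percent strength and a rank score by strength. CASAVA, Bowtie2, BWA and MACS2 and the build mm10 are named in the submitters' processing notes, and their roles and versions, and whether the 2 samples of a genotype were pooled, are not given in the sources used here. Whether hotspot coordinates count from 0 or 1 is not stated. Lists were paired on 1 bp of overlap and assigned to RefSeq genes (GRCm38.p6) with Python 3.11.15, pandas 2.3.3, numpy 2.4.6 and scipy 1.17.1, and the assignment was tested on simulated data. Named are all members with a hotspot at an end, with intervals for the 12 strongest. Also named are all X members, the 10 members with most hotspots inside (and ties), and the 5 largest and 5 smallest ratios among stronger shared hotspots. Members and lists were chosen with earlier results of these data known, and strength classes, CpG classes and medians per gene were added after the data were seen. One member is counted but not reported by name here. Alternatives covered the window, the symbol rule, list length, pairing and scaling.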

Additional observations from a re-analysis of the deposited data

How the results depend on the processing

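No test was run, so direction and size were compared. Keeping only the strongest knockout hotspots, to the number of the wild type list, 28 members (25.7%) carried a knockout-only hotspot at an end (14.6% of all genes did) and 25 had one at a start, and knockout hotspots inside members numbered 8.54 per Mb. In a 2 kb window, 2 members had a wild type hotspot at an end, Brd9 (179) besides Smarca2. Restricted to hotspots above the list median, there were 5.20 wild type and 7.21 knockout hotspots per Mb, and without 1 kb next to ends the knockout had 8.79. Of the densities in this section only the last has a value over all genes (7.89), and the count of 25 at a start has none. The median log2 ratio of the 49 shared hotspots inside members was -1.23 with strengths as deposited and -1.15 with percent strength, beside -0.96 in the main setting. Neither alternative has a value over all genes. Strengths as deposited leave out the division by 182 and 151, which moves every ratio by the same amount, in members and in all genes alike. Windows of 500 bp and 2 kb gave 41 and 54 members with a knockout-only hotspot at an end (37.6 and 49.5%, beside 22.8 and 27.9% of all genes). The literal symbol rule (without Kmt2 and Kmt5) gave 43 of 101 (42.6%), beside 25.5% of all genes. The wider one (with Smarcad1, Smarcal1 and Brdt) gave 50 of 112 (44.6%, beside 25.5%), and pairing on 50% overlap 49 (45.0%, beside 25.6%). No paired analysis was possible because each genotype has 1 list whose columns carry no replicate number, and for that reason no replicate could be left out. Shortening the knockout list leaves the count of wild type hotspots at ends as it is by construction. The weakest listed hotspots, of 28 and 23 reads, set what could be detected.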

Other observations

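Genes just outside the symbol rule were looked at as values. Brdt, the testis-specific reader of histone acetylation, had a knockout-only hotspot of strength 132 at an end and 2 knockout hotspots inside. Smarcad1, a SNF2-family remodeller, had 1 hotspot inside in each list and none at an end. Smarcal1, an annealing helicase of the same family, had none in either list at an end or inside.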
